A study of Mus musculus with 14 samples.

Results

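The mouse genome holds 39 Hox genes in 4 clusters, and acetylation of histone H3 at lysine 27 (H3K27ac) was examined here at all 39, of 21627 protein-coding genes on the numbered chromosomes and X. Members were the genes of mouse build mm10 named Hoxa, Hoxb, Hoxc or Hoxd followed by a number. The Hoxa cluster has 11 genes on chromosome 6, the Hoxb cluster 10 on chromosome 11, the Hoxc cluster 9 on chromosome 15 and the Hoxd cluster 9 on chromosome 2.

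Hox genes encode homeodomain transcription factors that give body segments their identity along the head-to-tail axis, and their order on the chromosome follows the order of their use in the embryo. In cells that do not use them they are held silent by Polycomb complexes, which place trimethylation on the same lysine 27 of histone H3 that other enzymes acetylate, so that 1 histone tail cannot carry both marks. Blood stem cells and progenitors use some of them, Hoxb4 and Hoxa9 among the best known, and switch most of them off as myeloid cells mature.

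The cells were CD11b+ tumour-associated macrophages, sorted by flow cytometry from T387 human glioblastoma xenografts growing in the brains of NSG mice, a strain that lacks mature lymphocytes. Mice received pracinostat, an inhibitor of histone deacetylases, at 30 mg/kg by mouth, or vehicle with DMSO as solvent, on 4 days a week over 3 weeks, starting on day 7 after implantation. The text on drug preparation gives 3 mg/kg instead. H3K27ac was mapped by CUT&Tag, in which an antibody directs a transposase to cut and tag the DNA around the mark, in 4 pracinostat and 3 DMSO libraries, and non-specific IgG was used in as many libraries to show the background of the assay. The sources used here do not give the age or sex of the mice, the number of animals behind a library or the handling of reads from the human graft. The comparison asks whether loci that Polycomb usually silences carry H3K27ac in these cells, and whether they gain it with a deacetylase inhibitor.

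The deposited files list peak summits, the single bases at the top of each peak, with a −log10 significance score. H3K27ac lists held 229609 to 289017 summits in pracinostat libraries, and 208401, 53503 and 291042 summits in DMSO libraries. DMSO replicate 2 stood apart, with the short list of 53503 summits, 65.3% of them at its lowest score. IgG lists held 2194 to 10186 summits in pracinostat libraries and 9244 to 18517 in DMSO libraries. Scores are not comparable between libraries, so each summit is given by its percentile among all summits of its own library (100 is the highest score), and lists of unequal length limit any comparison of percentiles. At a gene end in at least 3 libraries, where 62.4% of all genes had a summit, 8 of 8 macrophage, 7 of 7 microglia, 3 of 4 monocyte-derived and 5 of 6 neutrophil markers had one, and 2 of 7 neuron and astrocyte, 3 of 4 oligodendrocyte, 3 of 5 endothelial and mural and 4 of 5 lymphocyte markers. In all 7 libraries, where 35.1% of all genes were marked, these were 6 macrophage, 4 microglia, 1 monocyte-derived, 1 neutrophil and 1 oligodendrocyte marker, and 0 of the other 3 lists.

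The sequences upstream of 4 Hox genes are shown because they range from a gene marked in every library to genes marked in none. Each is the 250 bases before the annotated start, from RefSeq on GRCm38.p6 (mm10), 5′ to 3′ on the strand of the gene, with CG dinucleotides in capitals. Hoxb4 (chr11:96318017-96318266, plus strand) carried a summit in all 7 libraries and lies inside the span of Hoxb3. Hoxc4 (chr15:103034145-103034394, plus strand) had a summit within this stretch in 3 pracinostat libraries. Hoxd1 (chr2:74762730-74762979, plus strand) and Hoxa9 (chr6:52227371-52227620, minus strand) had no summit at either gene end in any library.
Hoxb4: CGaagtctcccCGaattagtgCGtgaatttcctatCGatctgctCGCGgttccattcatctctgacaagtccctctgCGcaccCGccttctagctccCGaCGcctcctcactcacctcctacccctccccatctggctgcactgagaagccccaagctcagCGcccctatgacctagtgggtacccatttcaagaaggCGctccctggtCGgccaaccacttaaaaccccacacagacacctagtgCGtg
Hoxc4: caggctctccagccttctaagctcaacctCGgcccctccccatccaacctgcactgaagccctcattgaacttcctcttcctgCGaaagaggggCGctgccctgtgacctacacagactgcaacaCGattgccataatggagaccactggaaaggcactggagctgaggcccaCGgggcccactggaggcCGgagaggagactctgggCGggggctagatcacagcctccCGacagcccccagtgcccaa
Hoxd1: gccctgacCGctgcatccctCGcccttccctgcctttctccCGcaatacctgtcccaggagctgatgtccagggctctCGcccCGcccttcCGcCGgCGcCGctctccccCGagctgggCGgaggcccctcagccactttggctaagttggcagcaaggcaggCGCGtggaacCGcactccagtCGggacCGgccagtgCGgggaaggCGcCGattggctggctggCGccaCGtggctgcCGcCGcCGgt
Hoxa9: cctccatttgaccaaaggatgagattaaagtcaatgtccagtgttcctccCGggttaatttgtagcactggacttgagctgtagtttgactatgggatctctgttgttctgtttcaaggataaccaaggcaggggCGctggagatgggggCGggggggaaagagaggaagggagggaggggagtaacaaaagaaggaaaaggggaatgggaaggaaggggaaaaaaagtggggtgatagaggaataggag

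These stretches held 14 CG dinucleotides at Hoxb4, 8 at Hoxc4, 24 at Hoxd1 and 3 at Hoxa9. The stretch with the most CG dinucleotides among the 4, Hoxd1, thus belonged to a gene without any H3K27ac summit. The table held 24 promoters of 22 Hox genes, with a median of 12.5 CG dinucleotides (range 2 to 35) per 250 bases, against 10 over 21044 promoters of protein-coding genes. CCAAT, on either strand, was present in 58.3% of the Hox promoters, against 35.6% of all promoters. CACGTG, a palindrome, was present in 16.7% of the Hox promoters, against 6.70% of all. Neither motif was in the stretch upstream of Hoxb4, whereas that of Hoxd1 held both.

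Hox genes carried few H3K27ac summits. Within 1 kb of either gene end, 6, 13, 6 and 6 of the 39 genes had a summit in pracinostat replicates 1 to 4, and 9, 7 and 13 in DMSO replicates 1 to 3. The groups overlapped, with 13 genes as the highest value of both. These counts are 19.9 ± 8.97% of the Hox genes in pracinostat libraries (SD, n = 4) and 24.8 ± 7.83% in DMSO libraries (SD, n = 3). Over all protein-coding genes the share was 60.3 ± 1.47% in pracinostat and 53.3 ± 12.3% in DMSO libraries. In these bulk samples a mark on fewer cells and a weaker mark per cell cannot be told apart. The Hox share was the lower in each of the 7 libraries. In all libraries but DMSO replicate 2 it was also below the share of gene windows moved by 100 kb, which was 38.0 ± 2.80% in pracinostat and 30.3 ± 15.2% in DMSO libraries. In that library 17.9% of Hox genes and 13.6% of moved windows held a summit.

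In the IgG libraries a summit lay at 0 Hox genes in each of the 4 pracinostat libraries and at 2, 0 and 0 in the 3 DMSO libraries. Of all genes, 0.900 ± 0.431% had one in pracinostat IgG libraries and 1.87 ± 0.748% in DMSO IgG libraries. The 2 Hox genes were Hoxb6 and Hoxd8, both in DMSO IgG replicate 1, the longest IgG list.

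**Figure D1:**
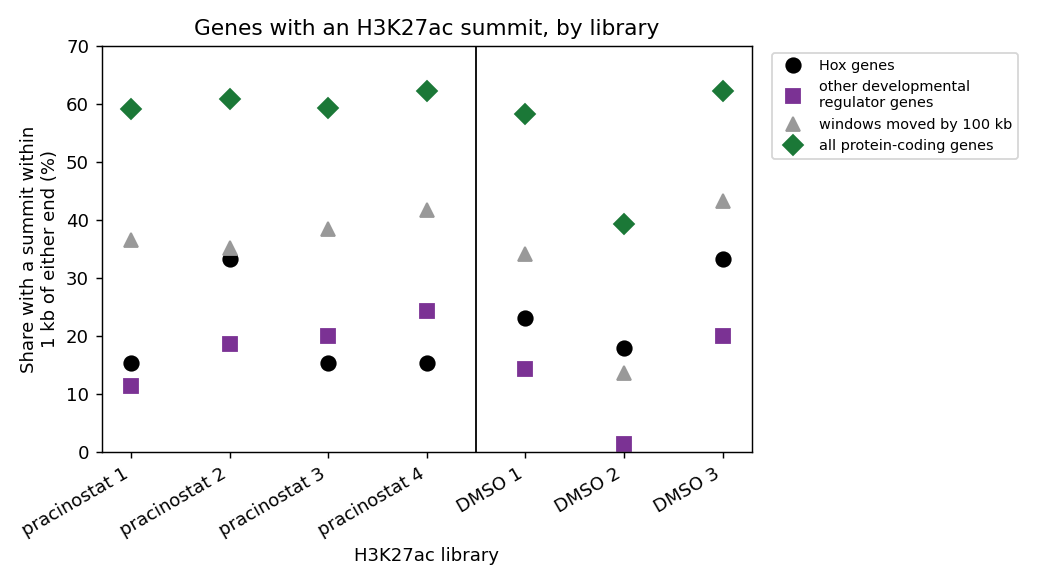
Share of genes with an H3K27ac summit within 1 kb of either end (vertical axis, percent) in each library (horizontal axis, pracinostat left of the line and DMSO right of it), for Hox genes, 70 other developmental regulator genes, windows moved by 100 kb and all protein-coding genes. Hox genes lie between 15.4 and 33.3% in every library, below all protein-coding genes.

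Few summits also lay at other developmental regulators that Polycomb represses in many differentiated cells. Of 70 such genes (Pax, Nkx, Lhx, Dlx, Sox and similar families), 18.6 ± 5.35% had a summit in pracinostat libraries and 11.9 ± 9.51% in DMSO libraries. DMSO replicate 2 marked 1 of the 70. Without that library the DMSO mean was 17.1% for these genes, 28.2% for Hox genes and 60.3% for all genes.

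The libraries rarely marked the same Hox gene. Of the 39 genes, 7 had a summit in no library, 19 in 1, 8 in 2, 2 in 3, 1 in 5 and 2 in all 7. Thus 32 Hox genes (82.1%) were marked in some library, against 77.8% of all genes, and 5 (12.8%) in at least 3 libraries, against 62.4% of all genes. All 7 libraries marked 2 Hox genes, against 35.1% of all genes. Of the 70 other developmental regulators 7 reached 3 libraries and 0 reached 7.

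Along the clusters, Hox genes numbered 4 to 8 act in the neck and trunk, and 4 of these 15 genes were marked in at least 3 libraries (Hoxa4, Hoxa7, Hoxb4 and Hoxb6). Numbers 9 to 13 act in the lower trunk, limbs and urogenital tract, and 0 of these 16 genes were. Of the genes numbered 9 to 13, a library marked 1, 4, 0 and 2 in pracinostat replicates 1 to 4 and 3, 0 and 7 in DMSO replicates 1 to 3. The groups overlapped, and DMSO replicate 3 had the most. By cluster, at least 3 libraries marked 3 of 11 Hoxa genes, 2 of 10 Hoxb genes, 0 of 9 Hoxc genes and 0 of 9 Hoxd genes. Over all genes the share was 62.4%. These counts by position and by cluster rest on 5 genes, and no difference between them was tested.

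The 7 genes without a summit at their ends in any H3K27ac library were Hoxa9, Hoxb9, Hoxc11, Hoxd1, Hoxd3, Hoxd8 and Hoxd12. Hoxa9 promotes the growth of myeloid progenitors. Inside the gene span, away from the ends, H3K27ac summits lay in Hoxa9 (1 pracinostat library), Hoxb9 (1 pracinostat library) and the long span of Hoxd3, which also covers Hoxd4 (3 pracinostat and 3 DMSO libraries), and in the other 4 there were 0. Of these 7, Hoxd8 had an IgG summit near its end in DMSO replicate 1, and Hoxd3 had IgG summits within its span in pracinostat replicates 2 and 3 and in DMSO replicate 1.

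**Figure D2:**
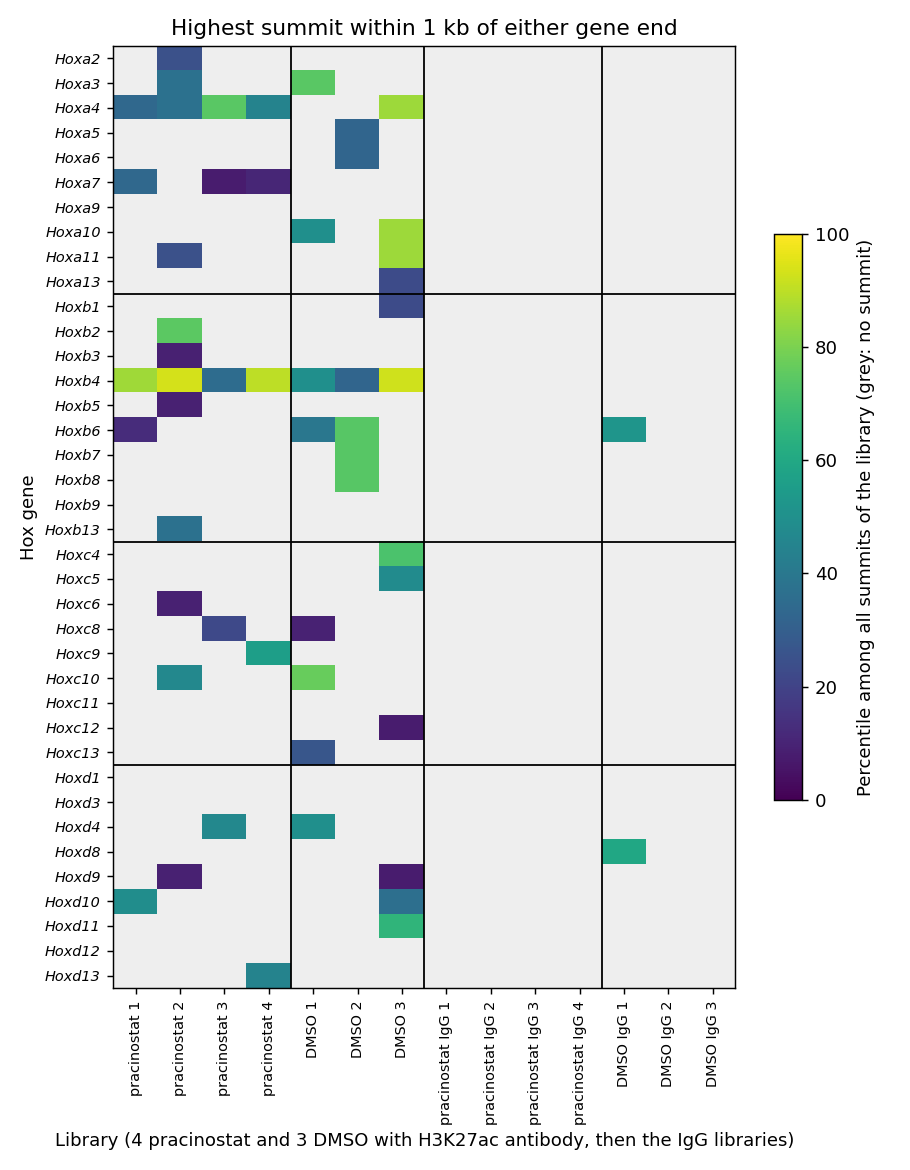
Percentile of the highest summit within 1 kb of either gene end (colour scale, 0 to 100, grey where there was none) for 38 Hox genes (rows, by cluster) in the 14 libraries (columns: pracinostat, DMSO, then pracinostat IgG and DMSO IgG). Hoxb4 is filled in all 7 H3K27ac libraries, whereas most other rows have 1 or 2 filled cells.

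Hoxb4, a regulator of the self-renewal of blood stem cells, was the most strongly marked Hox gene, with a mean summit percentile of 68.5 over the 7 libraries. Its highest summit stood at percentile 85.7, 93.5, 35.3 and 90.2 in pracinostat replicates 1 to 4, and at 49.6, 32.6 and 92.8 in DMSO replicates 1 to 3. The value in DMSO replicate 2 was the lowest score of that library, and the groups overlapped. Hoxb4 was also the only one of the 39 with a summit among the 30000 highest-scoring of at least 3 libraries, against 37% of all genes. In all, 4 Hox genes (10.3%) reached such a list in any library, against 47.5% of all genes. The other 3, Hoxb6, Hoxb7 and Hoxb8, did so in DMSO replicate 2, at percentile 74.0, and Hoxb7 and Hoxb8 shared 1 summit. That library held only 53503 summits, so its 30000 included 11425 drawn at random from those tied at its lowest score. Its list of 30000 is therefore less selective than those of the other libraries.

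Most summits at Hoxb4 fell in 1 block. Chaining summits less than 500 bp apart gave a region of 1888 bp at chr11:96318014-96319901, with 17 summits of all 7 libraries, from 253 bases before the start of the gene to 1634 bases after it. The summit nearest the start lay 28, −165, 59 and 32 bases from it in pracinostat replicates 1 to 4, and 146, 97 and 22 bases from it in DMSO replicates 1 to 3. Every library thus had a summit close to the start.

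Upstream of Hoxb4, inside the span of its neighbour Hoxb3, lay 3 further recurrent regions. The region at chr11:96310307-96311898 was marked in 3 pracinostat and 2 DMSO libraries, at percentiles 71.9, 35.3 and 56.0 in pracinostat replicates 2, 3 and 4 and at 9.73 and 91.0 in DMSO replicates 1 and 3. The region at chr11:96313629-96314994 was marked in pracinostat replicates 2 and 4 (37.3 and 44.6) and in DMSO replicates 1 and 3 (71.2 and 82.9). The region at chr11:96315506-96315978 was marked in pracinostat replicates 2 and 4 (37.3 and 56.0) and in DMSO replicate 2 (74.0). Each of these regions was marked in both groups.

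Between this stretch and Hoxb4 lies the microRNA gene Mir10a, which ends 993 bp before the start of Hoxb4. Its relative Mir10b lies in the Hoxd cluster near Hoxd4. Their main mature products share a seed (bases 2 to 8, in capitals), and the sequences below, from RefSeq on GRCm38.p6, are shown because the marked block stands beside 1 of them. The first is at chr11:96317186-96317208 and the other at chr2:74726074-74726096, both on the plus strand.
mmu-miR-10a-5p: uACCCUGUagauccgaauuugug
mmu-miR-10b-5p: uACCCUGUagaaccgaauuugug

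Mir10a had a summit within 1 kb of either end in 2 pracinostat and 0 DMSO libraries, and Mir10b in 0 libraries of either group. The Mir10a summits are those of the Hoxb4 block at −165 and −253 bases from the Hoxb4 start. The Mir10a window ends just past that start, and the nearest summits of the other libraries lie beyond its edge. Of the 6 microRNA genes in the clusters, Mir10a and Mir196b (1 DMSO library) were the marked ones. Non-coding genes were picked after their values were seen.

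**Figure D3:**
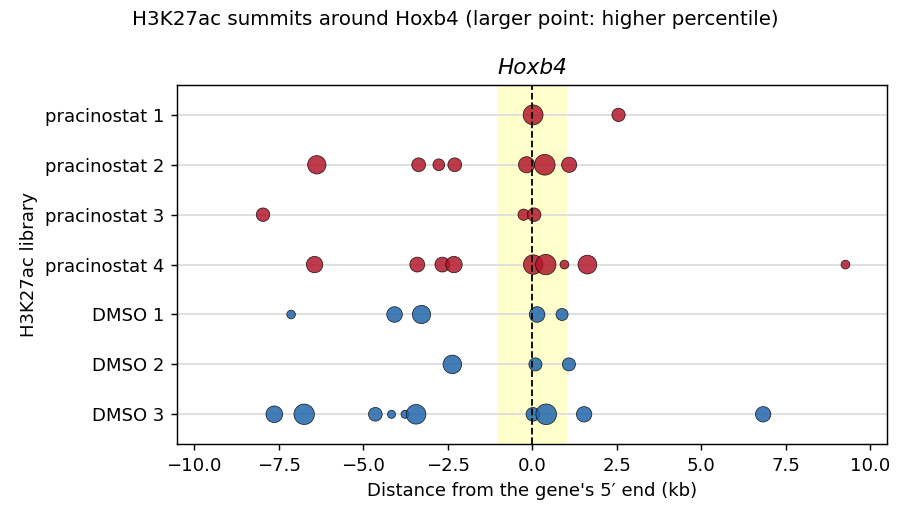
Position of each H3K27ac summit within 10 kb of the 5′ end of Hoxb4 (horizontal axis, kb, upstream to the left, with the shaded band 1 kb either side), by library (rows, pracinostat above DMSO), with point area growing with the percentile of the summit. All 7 libraries have a summit within 1 kb of the 5′ end, and 6 of 7 have summits 1 to 8 kb upstream of Hoxb4.

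Hoxa4, which acts in the neck vertebrae, was marked in all 4 pracinostat libraries, at percentiles 34.0, 37.3, 74.3 and 44.6, and in 1 DMSO library (replicate 3), at 85.2. The highest value was thus that of the DMSO library. No single site was marked in all 4 pracinostat libraries. The summits of pracinostat replicates 2 and 3 and DMSO replicate 3 lay −384, −286 and −571 bases from the 5′ end. Those of pracinostat replicates 1 and 4 lay 2870 and 2381 bases from it, past the 3′ end. Hoxb6, a trunk gene, was marked in pracinostat replicate 1 (12.6) and in DMSO replicates 1 and 2 (39.7 and 74.0). These summits lay at opposite ends of the gene, at chr11:96291979 with pracinostat and at chr11:96300950-96301073 with DMSO. An IgG summit of DMSO replicate 1 lay 308 bp from the H3K27ac summit of DMSO replicate 2, so a summit was called near the DMSO site with IgG too. Hoxa7, also a trunk gene and one that leukaemias with altered KMT2A keep active, was marked in pracinostat replicates 1, 3 and 4 (34.0, 7.60 and 10.6) and in 0 DMSO libraries. In pracinostat replicates 3 and 4 that score was the lowest of the list, and 0 of the Hoxa7 summits reached a score of 5. Of these summits, 2 lay at the 3′ end (chr6:52215957-52216365) and 1 at the 5′ end (chr6:52218826). At least 3 pracinostat and no DMSO library marked 1.29% of all genes, and 1 of the 39 Hox genes, Hoxa7.

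The other genes among the 10 with the highest mean percentile were marked in 2 libraries each. Hoxa10, which acts in the uterus and in myeloid progenitors, was marked at its ends in 0 pracinostat libraries and in DMSO replicates 1 and 3 (49.6 and 85.2). Inside its span, however, summits lay in 3 pracinostat libraries and 1 DMSO library. At least 2 DMSO and no pracinostat library marked 0.601% of all genes, and 1 of the 39 Hox genes, Hoxa10. Hoxa11, a forearm gene, was marked in pracinostat replicate 2 (25.0) and DMSO replicate 3 (85.2), where the summit at chr6:52241661 was also that of Hoxa10. Hoxa3, which acts in the thymus and neck, was marked in pracinostat replicate 2 (37.3) and DMSO replicate 1 (74.3). An IgG summit of DMSO replicate 3 lay 181 bp from another H3K27ac summit of pracinostat replicate 2, which falls outside the 1 kb window of Hoxa3. At all 3 of these Hoxa genes the highest value was a DMSO one. Hoxc10, a lumbar gene, was marked in pracinostat replicate 2 (46.8) and DMSO replicate 1 (76.9). Hoxd4, a hindbrain and neck gene, was marked in pracinostat replicate 3 (46.7) and DMSO replicate 1 (49.6). Hoxd10, a lumbar and limb gene, was marked in pracinostat replicate 1 (49.0) and DMSO replicate 3 (36.4). Of these last 3 genes, Hoxd10 had its higher value with pracinostat. In all, 4 summits lay at the ends of 2 Hox genes.

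At the start of Hoxc4, which acts in the neck and upper trunk, a region at chr15:103034254-103034393 was marked in pracinostat replicates 1, 2 and 3, at percentiles 59.6, 9.04 and 35.3, and in 0 DMSO libraries. The value in replicate 2 was the lowest score of its list. It lies inside the promoter stretch printed above, and was missed by the count at gene ends because the annotated span of Hoxc4 begins farther upstream. Regions marked in at least 3 pracinostat and no DMSO library made up 1.73% of all 541097 regions of the genome, and 1 of the 111 regions in the Hox clusters. The opposite pattern, at least 2 DMSO and no pracinostat library, held for 1 Hox region (at Hoxb6) and 1.38% of all regions.

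No Hox gene was gained or lost by presence at gene ends. A gain, defined as a summit in all 4 pracinostat and no DMSO library, was called at 0 Hox genes, against 0.333% of all genes. A loss, all 3 DMSO and no pracinostat library, was called at 0 Hox genes, against 0.0231% of all genes. Without DMSO replicate 2 there were 0 gained Hox genes, against 0.375% of all genes, and 1 lost one, Hoxa10, against 0.486% of all genes. That call covers the gene ends only, as Hoxa10 had summits inside its span in 3 pracinostat libraries.

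For a test of the level, genes with a summit in at least 3 libraries were ranked within each library by their highest score, and percentiles among these 13491 genes were compared with limma on normal scores. A difference of 1 corresponds to 1 SD of all ranked genes. Only 5 Hox genes entered. Hoxb4 stood at gene percentile 48.3, 57.3, 18.3 and 48.4 in pracinostat replicates 1 to 4, and at 22.6, 47.3 and 56.9 in DMSO replicates 1 to 3. The groups overlapped almost fully, with means of 43.1 ± 17.1 in pracinostat libraries (SD, n = 4) and 42.3 ± 17.7 in DMSO libraries (SD, n = 3) and a difference of 0.01 ± 0.36 in normal scores (SE, limma adjusted p = 0.999).

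Hoxb6 stood at gene percentile 12.7, 3.69, 5.23 and 3.42 in pracinostat replicates 1 to 4, and at 19.6, 62.6 and 3.83 in DMSO replicates 1 to 3. The groups overlapped, and the high value came from DMSO replicate 2. Pracinostat replicates 2, 3 and 4 and DMSO replicate 3 had no summit at either end and took the tied bottom rank. As the pracinostat and DMSO summits lay at opposite ends, the ranks compare different sites. The difference was −0.82 ± 0.39 (SE, limma unadjusted p = 0.0372, adjusted p = 0.800), and −0.28 without DMSO replicate 2. Hoxa4 stood at 17.6, 14.9, 35.4 and 15.9 in pracinostat libraries, and at 5.60, 19.0 and 42.3 in DMSO libraries, where replicates 1 and 2 had no summit (difference 0.05 ± 0.38, limma adjusted p = 0.997). Hoxa7 stood at 17.6, 3.69, 11.8 and 8.52 in pracinostat libraries, and at 5.60, 19.0 and 3.83 in DMSO libraries, where it had no summit and took the tied bottom rank (difference 0.09 ± 0.35, limma adjusted p = 0.978).

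By limma, 0 of these 5 Hox genes passed an adjusted p of 0.05 and 1 had an unadjusted p under 0.05, against 0 of all 13491 genes and 6.17%. The groups overlapped at all 5, against non-overlap at 6.66% of all genes. At Hoxa4, Hoxa7 and Hoxb6 this overlap rests on tied ranks of unmarked libraries, so it does not show similar levels there. At Hoxa7, which entered through pracinostat libraries only, the unmarked DMSO replicate 2 (19.0) ranked above every pracinostat library. When all genes with a summit in any library were ranked, 32 Hox genes entered. By limma 0 of them passed, against 0.0119% of all 16836 genes, and 5 were lower with pracinostat at an unadjusted p under 0.05, against 3.34% of all. Unmarked genes tie at the bottom of each ranking, which lifts their percentile in the short list of DMSO replicate 2. Without that library 1 of the 32 was lower at that p, against 2.7% of all genes. For scale, the macrophage regulator Spi1 averaged 90.9 ± 14.5 in pracinostat and 91.9 ± 3.43 in DMSO libraries, and the macrophage growth factor receptor gene Csf1r 73.4 ± 10.0 in pracinostat and 66.3 ± 9.56 in DMSO libraries. The actin gene Actb averaged 74.8 ± 11.9 in pracinostat and 77.9 ± 10.8 in DMSO libraries.

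Over whole clusters, the number of summits did not separate the groups. The 4 clusters together held 22, 37, 17 and 32 summits in pracinostat replicates 1 to 4, and 24, 10 and 35 in DMSO replicates 1 to 3. In the IgG libraries they held 0, 4, 1 and 0 with pracinostat and 5, 0 and 1 with DMSO. To allow for list length, summits per kb were divided by the summits per kb of the whole genome in the same library, so that 1 is the genome mean.

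The Hoxa cluster on chromosome 6 had a relative density of 0.930, 1.60, 0.398 and 0.677 in pracinostat replicates 1 to 4, and of 1.06, 1.37 and 0.757 in DMSO replicates 1 to 3. The Hoxb cluster (chr11:96193316-96369254) had 0.569, 0.912, 0.243 and 0.880 in pracinostat libraries, and 0.646, 1.68 and 0.719 in DMSO libraries. DMSO replicate 2, with 6 Hoxb summits in a short list, was the highest there. The Hoxc cluster (chr15:102920131-103037856) had 0.0944, 0.681, 0.545 and 0.232 in pracinostat libraries, and 0.536, 0 and 0.538 in DMSO libraries. The Hoxd cluster (chr2:74667225-74766142) had 0.337, 0.116, 0.324 and 0.368 in pracinostat libraries, and 0.128, 0.497 and 0.457 in DMSO libraries. The groups overlapped at each cluster. The group means of the Hoxa and Hoxb clusters stood above those of the other pair, but in pracinostat replicate 3 the Hoxc cluster was the highest and the Hoxb cluster the lowest.

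**Figure D4:**
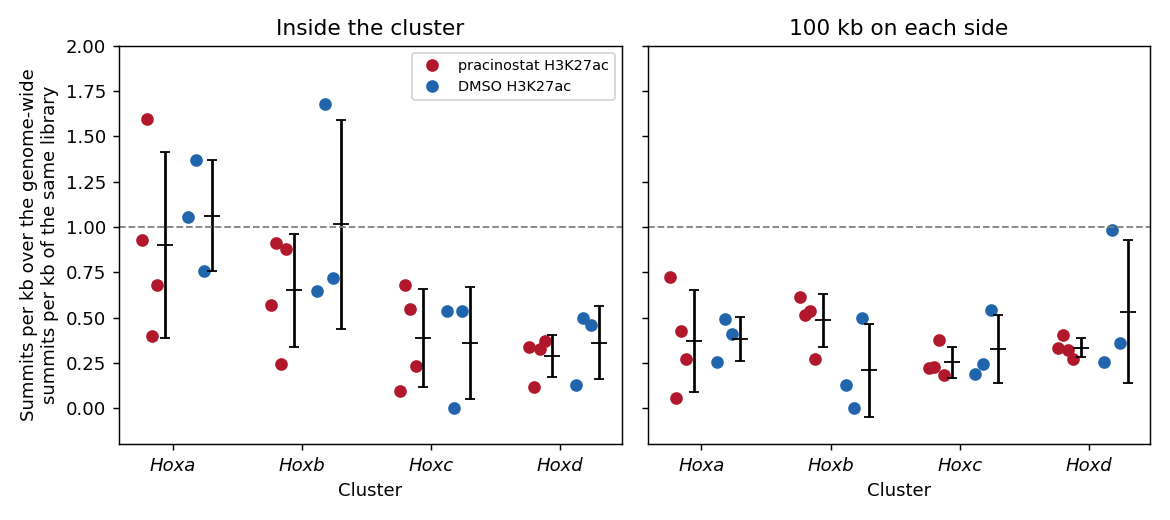
Summits per kb divided by the genome-wide summits per kb of the same library (vertical axis) inside each Hox cluster (left) and in the 100 kb on each side of it (right), for 4 pracinostat and 3 DMSO H3K27ac libraries (points), with mean and SD (black). The dashed line is the genome mean, and 24 of the 28 points inside clusters lie below it. The Hoxb span drawn here includes Hoxb13, which lies apart from the other Hoxb genes.

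Mean relative density over the Hoxa cluster was 0.901 ± 0.514 with pracinostat and 1.06 ± 0.308 with DMSO, a difference of −0.16. Over the Hoxb cluster it was 0.651 ± 0.313 with pracinostat and 1.014 ± 0.575 with DMSO, a difference of −0.36. Over the Hoxc cluster it was 0.388 ± 0.271 with pracinostat and 0.358 ± 0.310 with DMSO, a difference of 0.03. None of these differences exceeded the SD of the DMSO libraries, and the same held for Hoxd, with 0.286 ± 0.115 for pracinostat, 0.361 ± 0.203 for DMSO and a difference of −0.07. The exact two-sided permutation p was 0.686, 0.457, 0.800 and 0.571 in that order, and 0.800 for each after adjustment over the 4 clusters. The smallest p that 35 splits allow is 0.0286. Without DMSO replicate 2 the differences were −0.01, −0.03, −0.15 and −0.01 in the same order. The Hoxb values depend on the span, as Hoxb13 lies apart from the other Hoxb genes. With the Hoxb span drawn without Hoxb13, the means were 0.965 ± 0.558 with pracinostat and 1.67 ± 1.14 with DMSO. The difference was then −0.70 (exact permutation p = 0.457).

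In each H3K27ac library the median genomic window of the same length held fewer summits than the genome mean. Only windows with a summit in some H3K27ac library were counted. Against such windows, 20 of the 28 cluster and library pairs held more summits than the median window. Against their own flanks of 100 kb, 9 of the 28 had the lower density. In the Hoxa cluster the flanks averaged 0.370 ± 0.280 in pracinostat and 0.384 ± 0.121 in DMSO libraries, both below the mean of the cluster itself. In pracinostat replicate 3, however, the Hoxa flanks (0.427) were above the cluster (0.398). Group means of the Hoxb and Hoxc clusters were also above those of their flanks. Hoxd went the other way, with flanks of 0.332 ± 0.0528 in pracinostat and 0.533 ± 0.394 in DMSO libraries, above the cluster in both groups.

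Libraries seldom shared a site within the clusters. Of 111 summit regions in the clusters, 89 (80.2%) were marked in 1 library, against 61.3% of all regions. At least 3 libraries marked 9 (8.11%), against 21.7% of all. All 7 marked 2, of which 1 was the block at Hoxb4. The Hoxa and Hoxb clusters held 4 recurrent regions each, Hoxc held 1 and Hoxd none. The 9 recurrent regions include, beside those named above, 1 at Hoxa4 (chr6:52191989-52192764) and 1 near the Hoxa3 end (chr6:52211730-52212261), each marked in 2 pracinostat and 1 DMSO library. No test was made of this difference.

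In 10 kb bins, 20 of the 53 cluster bins (37.7%) had a summit in at least 3 libraries, against 33.1% of the genome. They were 10 of 12 Hoxa bins, 4 of 18 Hoxb bins, 3 of 12 Hoxc bins and 3 of 11 Hoxd bins. The bin of Hoxb4 and Mir10a (chr11:96310001-96320000) was the only cluster bin marked in all 7 libraries. Its percentile among ranked bins was 83.1, 89.2, 38.0 and 83.3 in pracinostat replicates 1 to 4, and 72.3, 88.2 and 87.3 in DMSO replicates 1 to 3. The groups overlapped (difference −0.26 ± 0.35 in normal scores, limma adjusted p = 0.957).

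The bin across Hoxa10 and Hoxa11 (chr6:52240001-52250000) stood at 10.99, 48.9, 9.78 and 7.66 in pracinostat replicates 1 to 4, and at 65.8, 32.8 and 77.7 in DMSO replicates 1 to 3. A summit lay in this bin in pracinostat replicate 2 and in DMSO replicates 1 and 3 only, and the other values are the tied rank of unmarked bins in their libraries, which is highest in the short list of DMSO replicate 2 (difference −1.24 ± 0.51, limma unadjusted p = 0.0151, adjusted p = 0.788). By limma, 0 of the 20 cluster bins passed an adjusted p of 0.05 and 1 had an unadjusted p under 0.05, against 0.00115% and 6.09% of all 87125 ranked bins. That bin was lower with pracinostat, as were 3.01% of all bins at this p. The groups overlapped at all 20, against non-overlap at 6.31% of all bins. In all of them but the Hoxb4 bin, some of the values compared are tied ranks of unmarked bins.

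Other bins with the highest percentile or the smallest p of their cluster were marked in fewer libraries. The bin at Hoxb7 and Hoxb8 stood at 53.6 and 30.5 in pracinostat replicates 1 and 4, and at 74.8 and 88.2 in DMSO replicates 1 and 2 (difference over all 7 libraries −0.82, limma adjusted p = 0.846). The bin at Hoxc6 and Hoxc8 stood at 31.9 and 30.2 in pracinostat replicates 2 and 3, and at 31.7 in DMSO replicate 1 (−0.10, limma adjusted p = 0.995). Both had no summit in the libraries not named. The bin at Hoxc4 stood at 62.2, 41.1 and 38.0 in pracinostat replicates 1, 2 and 3, and at 61.0 in DMSO replicate 3 (0.01, limma adjusted p = 1.000). The bin at Hoxd4 stood at 45.9 and 20.3 in pracinostat replicates 3 and 4, and at 55.7 and 30.4 in DMSO replicates 1 and 3 (−0.54, limma adjusted p = 0.903). The remaining libraries had no summit there, and take the tied rank in the difference.

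Of 14 flanking genes 9 (64.3%) had a summit in at least 3 libraries, close to the 62.4% of all genes. The highest were Cbx5, which binds methylated histone H3 lysine 9 (75.7 ± 3.25 in pracinostat and 68.7 ± 11.7 in DMSO libraries), and Hnrnpa3, an RNA-binding protein (69.1 ± 11.7 in pracinostat and 76.1 ± 12.7 in DMSO libraries). Hox cofactors, homeodomain partners that bind DNA with Hox proteins, were marked in at least 3 libraries in 7 of 9 cases (77.8%). Pknox1 led, with 90.7 ± 4.67 in pracinostat and 98.0 ± 0.884 in DMSO libraries. It was followed by Pbx2, with 65.7 ± 14.6 in pracinostat and 52.3 ± 4.80 in DMSO libraries.

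All 28 Polycomb genes and all 18 listed activators of Hox genes reached at least 3 libraries, against 62.4% of all genes. The activators include KMT2, KDM6 and acetyltransferase genes, among others. Pcgf3 led the Polycomb list, with 85.6 ± 8.74 in pracinostat and 96.0 ± 3.67 in DMSO libraries. Ezh2, a methyltransferase for lysine 27, had 83.9 ± 9.70 in pracinostat and 89.0 ± 4.47 in DMSO libraries. The activators were led by the acetyltransferase gene Kat7, with 84.3 ± 15.4 in pracinostat and 85.3 ± 5.09 in DMSO libraries, and by the lysine 4 methyltransferase gene Kmt2b, with 76.1 ± 9.09 in pracinostat and 80.7 ± 16.8 in DMSO libraries. By limma, 0 genes passed an adjusted p of 0.05 in any of these lists. At an unadjusted p under 0.05, 3 of 28 Polycomb genes and 1 of 7 ranked cofactors were higher with pracinostat, and 1 of 18 activators was lower, against 2.74% of all genes higher and 3.42% lower. Of the 5 ranked neutrophil markers 3 were lower with pracinostat at an unadjusted p under 0.05 (0 adjusted). On average 62.5% of the 6 neutrophil markers had a summit in pracinostat and 72.2% in DMSO libraries, and Retnlg had none in any. S100a8, the neutrophil marker found in all 7 libraries, was not lower, with 56.3 ± 20.1 in pracinostat and 52.6 ± 6.07 in DMSO libraries. CD11b is also carried by neutrophils, and the part of neutrophils in the values of the Hox genes was not tested.

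CG-rich promoters usually carry H3K27ac, and few Hox genes with such a promoter were marked at their ends. Promoter sequences were at hand for 22 of the 39 Hox genes. Summits were counted at the gene ends, which for some starts lie elsewhere than the promoter. Of all genes with at least 13 CG dinucleotides in the 250 bases before a start, 84.7% had a summit in at least 3 libraries and 57.0% in all 7. Of the 12 Hox genes with such a promoter, 1 did so, Hoxb4.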

How the data were processed

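Each of the 14 libraries (4 pracinostat and 3 DMSO with H3K27ac antibody, as many with IgG) had 1 deposited summit list. The score in column 5 is a −log10 p-value or q-value (which of them is not stated), as deposited by the authors, not normalized between libraries. The submitters' processing notes name HOMER, MACS2 2.2.9.1, Bowtie2, DESeq2 and the build mm10, without roles. The sources used here do not give read depth, the peak-calling threshold or whether IgG served as control, so precision is known only from the summit numbers.

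Gene ends came from RefSeq on GRCm38.p6. The table matched all 39 Hox genes, and 22 had a promoter sequence. Summit scores were turned into within-library percentiles. Genes or 10 kb bins with a summit in at least 3 libraries were ranked by their highest score, turned into normal scores and compared with limma 3.58.1 (trended, robust variance, statmod 1.5.0, R 4.3.3), with Benjamini-Hochberg adjustment over all features. Cluster densities were compared by exact permutation. The limma step was tested on simulated data.

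Ranks within a library cannot show a change that affects all sites alike. The labels call the samples biological replicates without naming animals, so a p-value covers only the spread between these samples, which may be technical. Values in every library are given for the 10 Hox genes with the highest mean percentile and for ranked Hox genes, and for the highest bin and the bin with the smallest p of each cluster, except 1 Hox gene and 1 bin that are not reported here. The members and lists were chosen with earlier results of these data known. Alternatives covered the window, filter, list length, score threshold, model terms, bin size, cluster span and each replicate.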

Additional observations from a re-analysis of the deposited data

Results flagged for a closer look

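In groups of 4 libraries, a library was singled out when its gap to the nearest other took up most of the range of the group. For independent values without ties, chance does this in about 1 in 20 groups. Counts here repeat and unmarked libraries share a bottom rank, so that rate cannot be set against the number singled out. Of 17 groups examined, 4 were singled out. In pracinostat replicate 2, 13 Hox genes had a summit, against 6 in each of the other 3 pracinostat libraries. Hoxa4 was highest in pracinostat replicate 3, at gene percentile 35.4. The bin across Hoxa10 and Hoxa11 was highest among pracinostat libraries in replicate 2, at percentile 48.9, the one pracinostat library with a summit there. The bin of Hoxb4 and Mir10a was lowest among pracinostat libraries in replicate 3, at percentile 38.0.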

How the results depend on the processing

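The number of Hox genes past an adjusted limma p of 0.05 was 0 under all 20 alternatives for genes, and that of cluster bins was 0 under all 18 for bins. The mean number of Hox genes with a summit was 3.75 in pracinostat and 3 in DMSO libraries with windows of 500 bp, 14.25 with pracinostat and 12.7 with DMSO at 2.5 kb, 15 with pracinostat and 13.7 with DMSO over whole genes, 3.25 with pracinostat and 3.33 with DMSO at 5′ ends (22 genes), 0.5 with pracinostat and 1.33 with DMSO in lists of 30000, and 2.5 with pracinostat and 4.67 with DMSO for scores of at least 5. The pracinostat mean was the lower one in the values reported (7.75, against 9.67 with DMSO) and the higher one with 500 bp, 2.5 kb and whole genes. Without DMSO replicate 2 the DMSO mean was 11, and 1 Hox gene was lost in place of 0, while over all genes 0.486% were lost in place of 0.0231% (chosen after seeing the data). Some directions turned, not only where differences were near 0. The Hoxb4 bin (−0.26 in the values reported) and the Hoxa density (−0.16) turned without pracinostat replicate 3. Leaving out 1 replicate at a time, the normal-score difference ranged from −0.25 to 0.25 for Hoxb4, −0.30 to 0.40 for Hoxa4, −0.0848 to 0.36 for Hoxa7, −0.45 to 0.0823 for the Hoxb4 bin, −0.45 to 0.0829 for the Hoxc6 and Hoxc8 bin and −0.33 to 0.37 for the Hoxc4 bin. The density difference ranged from −0.39 to 0.00689 for Hoxa and −0.15 to 0.13 for Hoxc. Hoxb4 turned to −0.12 with windows of 2.5 kb, and Hoxa4 to −0.10 among genes in at least 5 libraries and −0.0163 with list length as a term. The Hoxc6 and Hoxc8 bin turned to 0.0378 with any library, 0.0708 with any library and without DMSO replicate 2 (added later), and 0.16 with list length, and the Hoxc4 bin to −0.00592 with list length. The Hoxc density difference turned to −0.0311 with scores of at least 5. The causes were not tested. With lists of 30000, Hoxc and Hoxd held 0 summits in both groups and gave no value.

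The replicate numbers did not pair the samples (correlations of same-numbered deviations −0.05, 0.00 and −0.02). With the number as a replicate block, Hoxb4 differed by −0.0383 and the Hoxc6 and Hoxc8 bin by 0.0725, and 0 Hox genes and 0 bins passed. Few summits per cluster, 1 short DMSO list and unknown read depth limit what could be seen: a low or absent summit at these libraries' depth does not show that acetylation was absent.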
